A study of Rattus norvegicus with 6 samples.

Results

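The genes described here are those of major histocompatibility complex (MHC) class I antigen presentation in the rat: the class I heavy chains, whose symbols begin with RT1, and 12 genes of their light chain, their transcription and the supply and loading of their peptides. They were taken by symbol from the count table: every symbol that begins with RT1 except the class II names RT1-B, RT1-D and RT1-H, plus B2m, Tap1, Tap2, Tapbp, Tapbpl, Psmb8, Psmb9, Psmb10, Psme1, Psme2, Erap1 and Nlrc5. This gave 48 of the 29884 genes in the table, 36 of them RT1 genes. The set was chosen by the measured difference between the groups, led by RT1-CE10, RT1-T24-1, RT1-N2 and RT1-A3, so every value that sets one group against the other is given as a description, with no test of the members.

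RNA-seq was done on trigeminal ganglia, the ganglia that hold the sensory neurons of the face, from 6 rat samples labelled wild type. All 6 had CCI-ION, a chronic constriction of the infraorbital nerve, a surgical model of trigeminal neuralgia. In 3 of them, called injury, that was the only treatment; the other 3, called conduit, also received SFM-Gel @NGC-Light, a light-driven nerve conduit. There was no uninjured group and none with a conduit lacking light or gel. Sample descriptions place the injury samples at days 14, 15 and 16 after injury and the conduit samples at days 17, 18 and 19. These days count up by 1 from sample to sample and may be an entry error; if they are real, day and treatment cannot be told apart. Injury samples 1 and 2 carry batch 1, injury sample 3 and conduit sample 1 carry batch 2, and conduit samples 2 and 3 carry batch 3, without a statement of which step the batches refer to. The labels name no strain, sex, age or MHC haplotype and do not say whether each sample is a separate animal; p-values would then measure only the spread between these samples. Totals were 40172473 to 41903629 counts per library, and no pair of libraries held identical counts.

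MHC class I molecules display peptides from inside the cell at its surface, where CD8 T cells and natural killer cells read them. Each is a heavy chain joined to beta-2-microglobulin (B2m). Proteasomes cut the peptides, TAP carries them into the endoplasmic reticulum, and tapasin holds the empty heavy chain there until a peptide fits. Interferons raise the whole set through transcription factors that include the IRF family, and NLRC5 acts on class I promoters together with RFX, CREB or ATF and NF-Y. Neurons at rest are known for low class I levels, which injury or interferon can raise. In the rat, RT1-A genes are the classical heavy chains, and the RT1-CE, RT1-N, RT1-S, RT1-T and RT1-M genes are mostly grouped as non-classical.

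The promoters are shown first because the heavy chain genes share parts of them and because the members were counted as separate genes in spite of that likeness. RefSeq promoter windows on GRCr8, 250 bases before to 50 after the annotated start, were found for 42 of the 48 members, 32 RT1 genes and 10 others. The reference is 1 rat genome, and the animals may carry other alleles. Capitals mark exact matches, on either strand, to 3 motifs: kappa B (GGGGATTCC), the interferon-stimulated response element or ISRE (GAA or GAAA, then any 2 bases, then GAAA; a match on the other strand begins with TTTC, and neighbouring matches can overlap), and a CREB-type core (TGACGC). Each window is written on the strand of its gene.
RT1-A1 (chr20:4907078-4907162, plus strand): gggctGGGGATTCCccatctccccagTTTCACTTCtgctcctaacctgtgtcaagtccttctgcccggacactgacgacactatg
RT1-A2 (chr20:4872691-4872775, plus strand): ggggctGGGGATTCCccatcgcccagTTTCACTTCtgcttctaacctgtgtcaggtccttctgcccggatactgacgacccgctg
RT1-A3 (chr20:4849276-4849360, plus strand): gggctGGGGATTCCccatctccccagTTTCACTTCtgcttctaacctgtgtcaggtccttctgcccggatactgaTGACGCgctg
RT1-CE10 (chr20:3385095-3385179, minus strand): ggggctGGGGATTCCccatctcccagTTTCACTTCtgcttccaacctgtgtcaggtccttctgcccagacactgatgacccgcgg
RT1-CE16 (chr20:3265495-3265579, minus strand): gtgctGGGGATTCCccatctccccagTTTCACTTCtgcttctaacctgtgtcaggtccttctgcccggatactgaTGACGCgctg
RT1-CE5 (chr20:3484178-3484262, minus strand): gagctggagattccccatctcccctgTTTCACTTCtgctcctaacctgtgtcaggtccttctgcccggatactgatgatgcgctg
RT1-N2 (chr20:2646208-2646292, plus strand): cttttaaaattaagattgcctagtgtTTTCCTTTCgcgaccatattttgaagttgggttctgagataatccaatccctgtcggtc
RT1-N3 (chr20:2666256-2666340, plus strand): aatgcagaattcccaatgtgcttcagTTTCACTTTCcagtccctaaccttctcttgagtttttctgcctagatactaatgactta
RT1-S3 (chr20:2675390-2675474, plus strand): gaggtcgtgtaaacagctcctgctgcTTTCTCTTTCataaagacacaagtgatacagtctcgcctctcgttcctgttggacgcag
B2m (chr3:129549154-129549238, plus strand): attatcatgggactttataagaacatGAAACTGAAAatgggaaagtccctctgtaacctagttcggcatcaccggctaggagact
Tap1 (chr20:4668606-4668690, minus strand): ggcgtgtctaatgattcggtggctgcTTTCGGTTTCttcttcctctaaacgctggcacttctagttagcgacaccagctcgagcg
Tap2 (chr20:4652284-4652368, minus strand): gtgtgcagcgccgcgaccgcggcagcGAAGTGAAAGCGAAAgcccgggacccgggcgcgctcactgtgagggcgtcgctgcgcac

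Kappa B and ISRE stood side by side in the 3 classical RT1-A promoters and in some RT1-CE promoters. The kappa B letters were in 9 of 32 RT1 windows (28.1%) and in 0.281% of all 33469 windows. ISRE letters were in 16 of 32 RT1 windows, in 7 of the 10 other members and in 11.7% of all windows. The 2 forms were unlike in their shares. The longer form, which begins with GAAA, was in 3 RT1 windows (9.38%), 7 other members and 3.92% of all windows. The shorter form was in 13 RT1 windows (40.6%), 3 other members and 8.54% of all windows. Kappa B and ISRE together were in 9 RT1 windows and in 15 windows of all genes (0.0448%). Thus 9 of those 15 belonged to class I genes. In these 9 the first letters of the 2 matches were 20 or 21 bases apart. Kappa B was searched in an exact spelling only, and several RT1 windows are near-copies of each other. Nothing is therefore read from the kappa B shares. The CREB-type core was in 4 of 32 RT1 windows (12.5%) and 6.73% of all windows, and lay 49 bases past the ISRE in RT1-A3, RT1-CE15 and RT1-CE16.

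RT1-CE16 and RT1-A3 had the same letters from the ISRE onward and unlike measured levels. Whether promoter sequence bears on the levels was not tested. Over the 59 bases from the first letter of the ISRE onward, RT1-CE16 was identical to RT1-A3 at 59 bases, RT1-A2 and RT1-CE5 at 57, RT1-CE10 at 54 and RT1-A1 at 52, whereas RT1-S3 and RT1-N3 matched it at 20 and RT1-N2 at 15. Per length of gene (FPKM), RT1-CE16 was at 94.8, 48.1 and 41.3 in injury and 80.7, 73.4 and 103.7 in conduit, above RT1-S3 and so the highest RT1 gene in each library except injury sample 3. RT1-A3 was at 7.11, 3.68 and 0.236 FPKM in injury and 14.1, 12.3 and 19.1 in conduit. RT1-N2, RT1-N3 and RT1-S3 had an ISRE without kappa B letters. The windows of RT1-T24-1, RT1-T24-3, RT1-T24-4 and Psmb9 held none of the ISRE letters, which says only that these letters are not in these windows. In Tapbp and Psmb8 the ISRE letters lay within 30 bases of the start, and in Tap1 and B2m farther upstream.

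**Figure D1:**
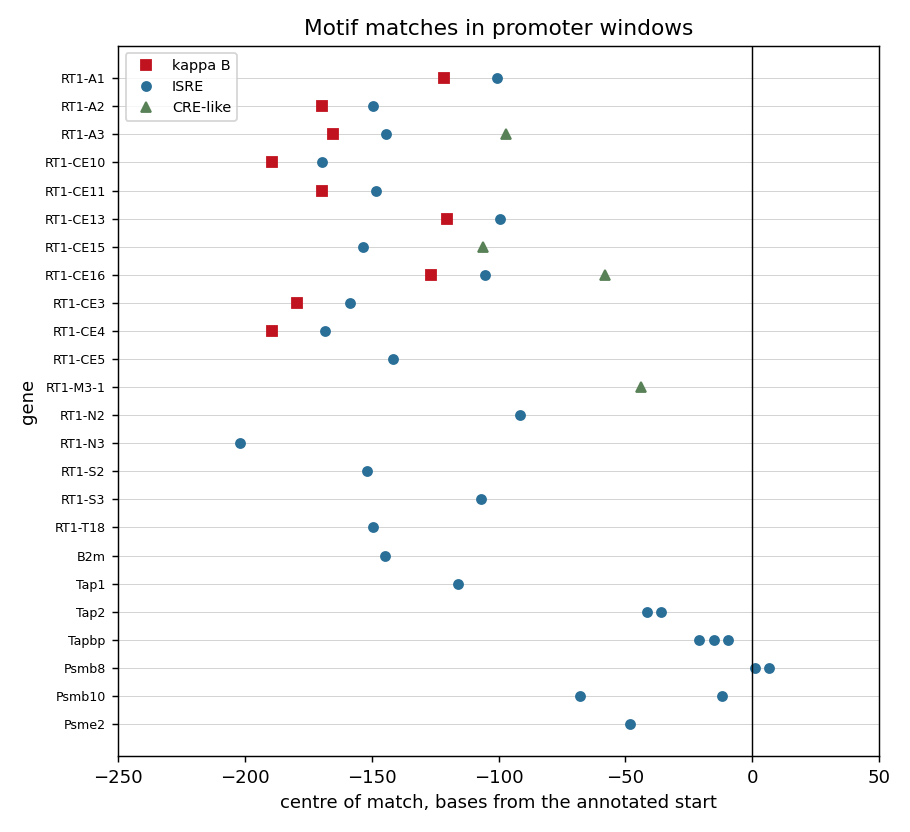
Positions of motif matches in the promoter windows of the members that hold one; the horizontal axis is the centre of the match in bases from the annotated start (vertical line), squares are kappa B, circles ISRE and triangles the CREB-type core. In 9 RT1-A and RT1-CE genes a kappa B square precedes the ISRE circle by 20 or 21 bases. RT1-CE5 and RT1-CE15 have an ISRE circle without a square, and no square stands beside the light chain and loading genes. Squares mark the exact letters only. Other spellings of kappa B were not searched, so a missing square does not mean that a promoter lacks a kappa B site.

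Libraries from conduit ganglia held higher values of most class I genes. Of the 36 RT1 genes, 23 had enough counts to be fitted; the other 13 never exceeded 6 counts in a library, and RT1-M10-1 and RT1-O1 were at 0 in every one. Among the 23, the fitted log2 fold change of conduit against injury was above 0 for 22, where 50.5% of all 16478 fitted genes were above 0, and its median was 0.93 against 0.00 over all genes. The range ran from -0.18 (RT1-M1-2) to 4.84 (RT1-CE10). For 11 of the 23, every conduit library lay above every injury library, a pattern that 5.41% of all genes showed; none had the opposite pattern, which 4.22% of all genes showed. Since these differences chose the set, nothing is read from that gap.

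At an adjusted p under 0.05, edgeR's quasi-likelihood test called 0 of the 23 RT1 genes and 0 of the 12 others, and 1 of all 16478 genes (0.00607%). Unadjusted p was under 0.05, in the direction of higher conduit values, for 7 RT1 genes and 9 others, beside 2.99% of all genes; in the other direction it was for 0 members, beside 2.36%. DESeq2 called 3 RT1 genes (RT1-CE10, RT1-CE11 and RT1-T24-1) and 4 others (Tap1, Tapbp, Psmb9 and Psme1), beside 0.616% of all genes called higher; limma-voom called 0 of both sets. In whole ganglia, more cells that express a gene and more RNA per cell cannot be told apart.

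**Figure D2:**
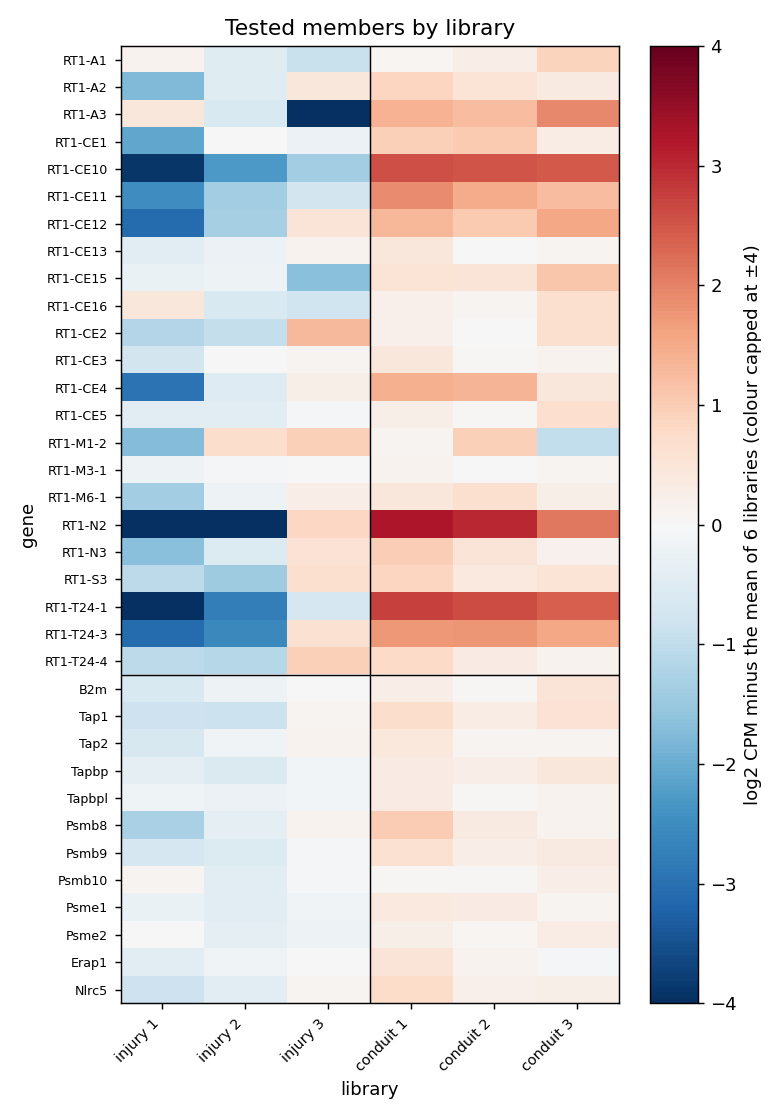
Heat map of the 35 fitted members (rows; RT1 genes above the line, other members below) in the 6 libraries (columns); colour is log2 CPM (depth-scaled counts) with a prior count of 2 minus the gene's mean over the 6 libraries, capped at 4 in either direction. Blue fills most of the columns of injury 1 and 2, injury 3 is mixed, and the 3 conduit columns are red or pale except for RT1-M1-2 in conduit 3.

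Values below are CPM, the usual depth-scaled read counts, here on TMM-scaled library sizes, in the order of samples 1, 2 and 3. The 3 classical RT1-A genes varied in opposite directions among the injury libraries. RT1-A3 was 12.1, 5.84 and 0.386 CPM in injury and 23.2, 21.1 and 33.6 in conduit (log2 fold change 2.09 ± 0.99, SE). RT1-A2 was 7.28, 17.7 and 34.1 in injury and 45.6, 36.7 and 32.0 in conduit (0.95 ± 0.51). RT1-A1 was 11.1, 7.14 and 5.42 in injury and 10.6, 11.95 and 18.7 in conduit (0.80 ± 0.32). With batch as a term, RT1-A3 had a log2 fold change of 5.90. That value rests on injury sample 3 against conduit sample 1, since only batch 2 held both groups. Injury sample 3 held the most RT1-A2 and the least RT1-A3 and RT1-A1 of its group, and only RT1-A3 had no overlap between groups. The 3 genes added together were far steadier, at 30.4, 30.7 and 39.9 CPM in injury and 79.4, 69.7 and 84.3 in conduit. RT1-A3 had 16 counts in injury sample 3, where the other 5 libraries held 247 to 1338.

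Among RT1-CE genes, 2 neighbours were near the floor in every injury library. RT1-CE10 was 0.0994, 0.402 and 0.795 CPM in injury, which are 4, 17 and 33 counts, and 13.2, 12.5 and 11.9 in conduit, which are 545, 498 and 475 counts. Its log2 fold change was 4.84 ± 0.60, the largest of the set, and the conduit libraries differed from each other by little. RT1-CE11 was 0.174, 0.426 and 0.699 in injury and 4.63, 3.49 and 2.89 in conduit (3.07 ± 0.52). Groups did not overlap for either gene. The 2 genes overlap each other on GRCr8, so reads from one may have been assigned to the other.

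RT1-CE12 and RT1-CE4 separated the groups with wide injury values. RT1-CE12 was 0.746, 2.65 and 9.64 CPM in injury and 16.8, 14.1 and 19.6 in conduit (1.95 ± 0.82). RT1-CE4 was 0.970, 5.42 and 9.11 in injury and 21.1, 19.8 and 10.6 in conduit (1.73 ± 0.73). In both genes injury sample 1 was lowest by more than 2-fold and injury sample 3 came nearest to conduit; without injury sample 3, RT1-CE12 had a log2 fold change of 3.31. RT1-CE1 was 0.298, 1.42 and 1.18 in injury and 2.75, 2.96 and 1.73 in conduit (1.36 ± 0.57). RT1-CE13, which overlaps RT1-CE12, was 0.696, 0.828 and 1.08 in injury and 1.35, 0.954 and 1.05 in conduit, with overlap (0.36 ± 0.34).

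In 2 of the remaining RT1-CE genes, RT1-CE16 and RT1-CE15, injury sample 3 was the lowest of its group rather than the highest. RT1-CE16, the RT1 gene with the highest mean level per length, was 162, 76.9 and 68.0 CPM in injury and 134, 126 and 184 in conduit (0.53 ± 0.35), so that injury sample 1 lay above 2 conduit libraries. RT1-CE15 was 6.02, 6.27 and 2.24 in injury and 10.5, 10.4 and 15.8 in conduit (1.34 ± 0.40). RT1-CE5 was 30.8, 31.1 and 41.2 in injury and 49.8, 43.8 and 68.2 in conduit (0.65 ± 0.20). RT1-CE15 and RT1-CE5 had no overlap between groups. On GRCr8 the RT1-CE5 gene overlaps RT1-CE4, so reads may have been exchanged between them. RT1-CE16 and RT1-CE15 shared their low injury sample 3 with RT1-A3 and RT1-A1, while RT1-CE5 was highest there within injury.

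**Figure D3:**
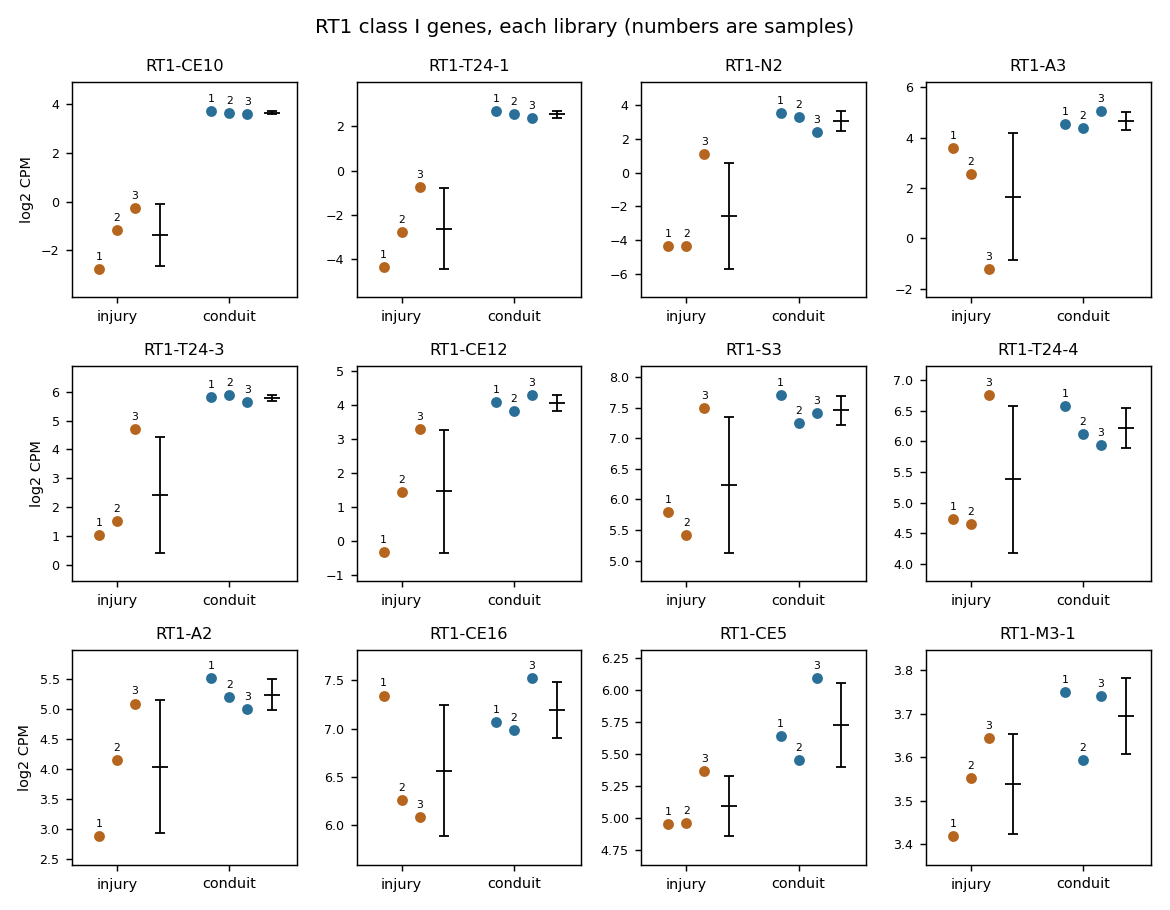
Level of 12 RT1 genes in each library, as log2 CPM with a prior count of 2 (vertical axis, own scale per gene); numbered points are samples, and the bar beside each group is its mean ± SD (n = 3). The injury points spread over several log2 units in RT1-N2, RT1-T24-1, RT1-A3 and RT1-T24-3, where the conduit points stay close together, while RT1-M3-1 varies little in both groups.

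Genes of the RT1-N, RT1-S and RT1-T block were low in injury samples 1 and 2 and higher in injury sample 3. RT1-N2 had 0, 0 and 85 counts in injury and 466, 381 and 204 in conduit, which are 0, 0 and 2.05 CPM against 11.2, 9.57 and 5.12. RT1-T24-1 had 0, 4 and 23 counts in injury and 264, 235 and 202 in conduit, up to 0.554 CPM against 6.37, 5.90 and 5.07. Both separated the groups, and a count of 0 allows up to 3 counts in a library of this depth. RT1-T24-3 was 1.99, 2.81 and 26.1 CPM in injury and 56.9, 58.4 and 50.4 in conduit (2.42 ± 1.03). It too had no overlap, with injury sample 3 closer to conduit than to the other injury libraries on the log2 scale. Without injury sample 3 its log2 fold change was 4.52, and with batch as a term it was 1.12. The latter value rests on injury sample 3 against conduit sample 1 alone. The log2 fold change of RT1-T24-1 was 4.72 ± 1.00 with all libraries and 6.82 without injury sample 3.

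In 3 genes of the same block, injury sample 3 reached conduit levels. RT1-S3 was 55.5, 42.8 and 180 CPM in injury and 210, 152 and 170 in conduit (0.93 ± 0.55). RT1-T24-4 was 26.7, 25.0 and 109 in injury and 95.4, 69.3 and 61.7 in conduit (0.50 ± 0.61), so that the highest library of all 6 was an injury library. RT1-N3 was 2.06, 4.54 and 9.93 in injury and 13.2, 9.49 and 7.56 in conduit (0.87 ± 0.54). In all 3, injury sample 3 lay within or above the conduit range. Without it the log2 fold change was 1.85 for RT1-S3 and 1.55 for RT1-T24-4. RT1-T24-3 and RT1-T24-4 overlap each other on GRCr8, so their reads may also have been exchanged.

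RT1-M3-1 stood apart from the rest in its steadiness. It is the rat counterpart of mouse H2-M3, which presents peptides that begin with formyl-methionine. It was 10.6, 11.7 and 12.5 CPM in injury and 13.4, 12.03 and 13.3 in conduit (0.15 ± 0.12), with overlap. The other 4 fitted RT1 genes, RT1-CE2, RT1-CE3, RT1-M1-2 and RT1-M6-1, were between 0.0249 and 0.845 CPM in every library.

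The spread of RT1 genes within a group had higher values in injury than in conduit, which the choice of the set can favour: RT1-CE10, RT1-CE11, RT1-T24-1 and RT1-N2 had injury means under 1 CPM and enough counts to be fitted only through conduit. The spread is given as a description. The median SD of log2 CPM over the 3 injury libraries was 1.12 for the 23 RT1 genes and 0.19 for all genes; over the 3 conduit libraries it was 0.32 and 0.20. A more than 4-fold range within injury was found in 14 of 23 RT1 genes and 5.17% of all genes, and within conduit in 0 of 23 and 4.84%. Injury sample 1 was the lowest of its group in 17 RT1 genes, as it was in 6829 of all 16478 genes, and injury sample 3 was the highest in 18, as in 4000 of all genes. The log2 level in injury sample 3 minus the mean of the other two had a median of 1.48, where all genes gave 0.00. Conduit sample 1, of the same batch, was above injury sample 3 in 20 of 23 genes, and the median difference over the 23 was 0.80. Over all 16478 genes it was above in 8213, with a median of -0.001. Differences between the groups chose the set, so nothing is read from that gap.

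A sum over all 36 genes keeps reads that were divided among near-identical copies, but only if those reads were counted at all, which is not known. In that sum, RT1 counts were 330, 245 and 516 CPM in injury (364 ± 139, SD, n = 3). In conduit they were 742, 624 and 715 CPM (693 ± 61.9). Groups did not overlap, and the difference of mean log2 sums was 1.00. Within batch 2, the only batch with both groups, it was 0.52, from 1 library of each. Without RT1-CE16 it was 1.22, a value chosen after seeing the data. The number of RT1 genes at 1 CPM or more was 11, 14 and 15 in injury and 19, 18 and 19 in conduit.

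By position on chromosome 20, the block of RT1-N, RT1-O, RT1-S and RT1-T genes differed most within injury. It summed to 86.2, 75.3 and 328 CPM in injury and 393, 305 and 299.9 in conduit, so that injury sample 3 held 3.80 and 4.35 times the sums of the other two and lay within the conduit range. RT1-CE genes summed to 203, 126 and 135 in injury and 255, 235 and 316 in conduit, without overlap and with injury sample 1 the highest of its group. RT1-M genes, nearly all from RT1-M3-1, summed to 10.8, 12.5 and 13.5 in injury and 14.3, 13.3 and 14.0 in conduit.

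The make-up of the RT1 counts therefore differed from one injury library to the next. RT1-CE16 held 49.2%, 31.4% and 13.2% of RT1 CPM in injury samples 1, 2 and 3, and 18.1%, 20.3% and 25.7% in conduit. RT1-S3 held 16.8%, 17.5% and 34.9% in injury and 28.3%, 24.4% and 23.8% in conduit. Between injury libraries, 19.5% to 45.5% of RT1 CPM would have to be assigned to other genes to make 2 libraries alike; between conduit libraries it was 6.23% to 14.6%. Injury sample 3 and conduit sample 1, of the same batch, differed by 17.5%, and injury sample 2 and conduit sample 3, of different batches, by 19.3%; both are below every pair of injury libraries. Whether the animals carried different haplotypes, or how reads common to several copies were counted, was not tested.

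**Figure D4:**
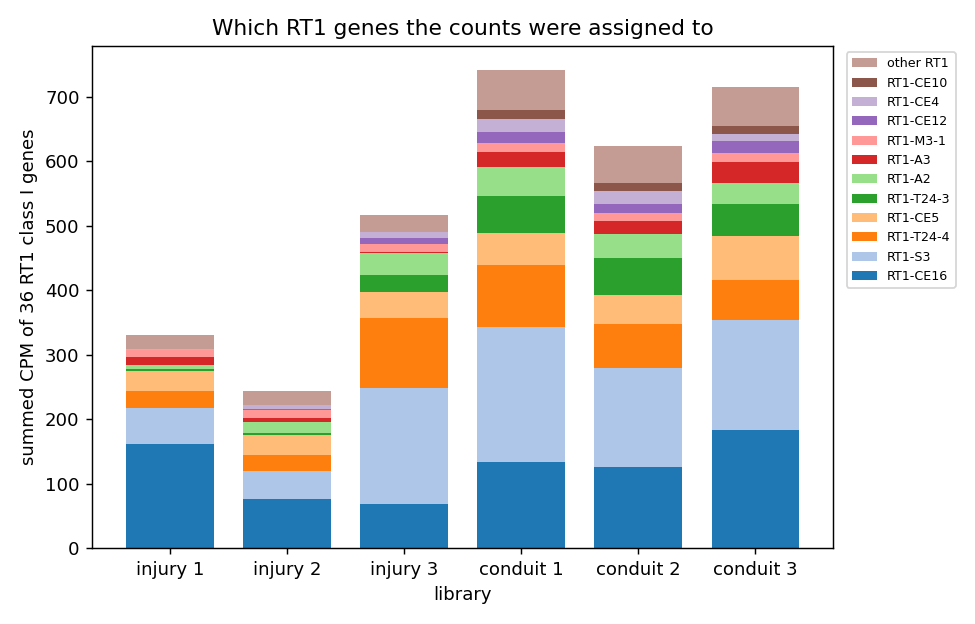
Summed CPM of the 36 RT1 genes in each library (vertical axis), stacked by gene. Conduit bars reach 624 to 742 CPM and are built of similar proportions, whereas the injury bars reach 245 to 516 CPM and RT1-CE16, the lowest band, takes 49.2% of injury 1 and 13.2% of injury 3.

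Per length of gene (FPKM, comparable between genes), the order of levels was led by RT1-CE16 at 61.4 ± 29.1 in injury and 85.9 ± 15.8 in conduit and by RT1-S3 at 33.6 ± 27.6 and 62.0 ± 12.01. Behind them in conduit came RT1-T24-3 at 22.3 ± 2.26, RT1-A2 at 15.9 ± 3.42, RT1-A3 at 15.2 ± 3.52 and RT1-T24-4 at 14.2 ± 3.81, of which the last 3 did not differ beyond their SD. In injury the third place was held by RT1-T24-4 at 10.4 ± 9.34, followed by RT1-M3-1 at 8.87 ± 0.906 and RT1-A2 at 8.56 ± 5.90, all within their SD. RT1-CE10 was at 0.399 ± 0.321 FPKM in injury and 11.04 ± 0.900 in conduit.

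B2m, the light chain that every class I heavy chain needs, was by far the most abundant member. Its CPM were 431, 572 and 655 in injury and 796, 676 and 939 in conduit, without overlap (0.54 ± 0.19). In FPKM it was 1.504, 2.96 and 1.93 times the summed RT1 genes in injury samples 1, 2 and 3 and 1.43, 1.40 and 1.64 times in conduit. The highest ratio was that of injury sample 2, the library with the lowest RT1 sum.

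Nlrc5, the transactivator of class I genes, was low in every library. It was 2.93, 3.86 and 5.62 CPM in injury and 8.86, 6.03 and 6.15 in conduit (0.76 ± 0.29), and the groups were separated by a narrow gap.

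Transport and loading genes had higher conduit means, by less than 2-fold each, and none passed edgeR's adjusted threshold. Tap1, a subunit of the peptide transporter, was 15.0, 14.7 and 29.4 CPM in injury and 44.3, 33.1 and 40.4 in conduit (0.99 ± 0.29). Its partner Tap2 was 13.3, 18.6 and 22.7 in injury and 27.8, 22.2 and 22.0 in conduit, with overlap (0.40 ± 0.21). Injury sample 3 had the highest Tap1 and Tap2 of its group.

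Tapbp, which encodes tapasin, was 43.7, 38.01 and 52.0 CPM in injury and 70.6, 67.2 and 77.5 in conduit (0.69 ± 0.13). Tapbpl encodes the related peptide editor TAPBPR, and was 17.0, 16.3 and 18.0 in injury and 24.4, 20.1 and 21.4 in conduit (0.36 ± 0.11). Neither overlapped. Erap1, which trims peptides in the endoplasmic reticulum, was 25.2, 31.1 and 34.3 in injury and 48.3, 37.8 and 32.0 in conduit, with overlap (0.38 ± 0.18).

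Of the inducible proteasome subunits, Psmb8 and Psmb9 had wider gaps between the group means than Psmb10, a difference that was not tested. Psmb8 was 5.35, 10.2 and 14.5 CPM in injury and 26.8, 17.1 and 14.6 in conduit (0.96 ± 0.39), with injury sample 3 and conduit sample 3 almost level. Psmb9 was 5.94, 6.39 and 9.16 in injury and 14.4, 11.4 and 12.1 in conduit (0.82 ± 0.20). Psmb10 was 28.9, 19.5 and 25.98 in injury and 27.6, 27.2 and 31.9 in conduit, with overlap (0.22 ± 0.16). Psmb8 and Psmb9 lie beside Tap2 and Tap1 within the MHC, in the order Tap2, Psmb8, Tap1, Psmb9, whereas Psmb10 lies on another chromosome.

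The constitutive subunits that these 3 replace, Psmb5, Psmb6 and Psmb7, summed to 526, 407 and 457 CPM in injury and 415, 460 and 525 in conduit. The mean log2 CPM of the inducible subunits minus that of the constitutive ones was -4.12, -3.59 and -3.29 in injury and -2.61, -3.10 and -3.25 in conduit, a difference of means of 0.68 with a narrow gap between injury sample 3 and conduit sample 3. Within batch 2 the difference was 0.68. Both subunits of the interferon-inducible proteasome activator PA28 had no overlap. Psme1 was 39.2, 34.9 and 42.8 CPM in injury and 61.6, 59.5 and 50.6 in conduit (0.55 ± 0.12). Psme2 was 48.6, 37.4 and 42.1 in injury and 57.3, 51.4 and 59.7 in conduit (0.39 ± 0.12).

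**Figure D5:**
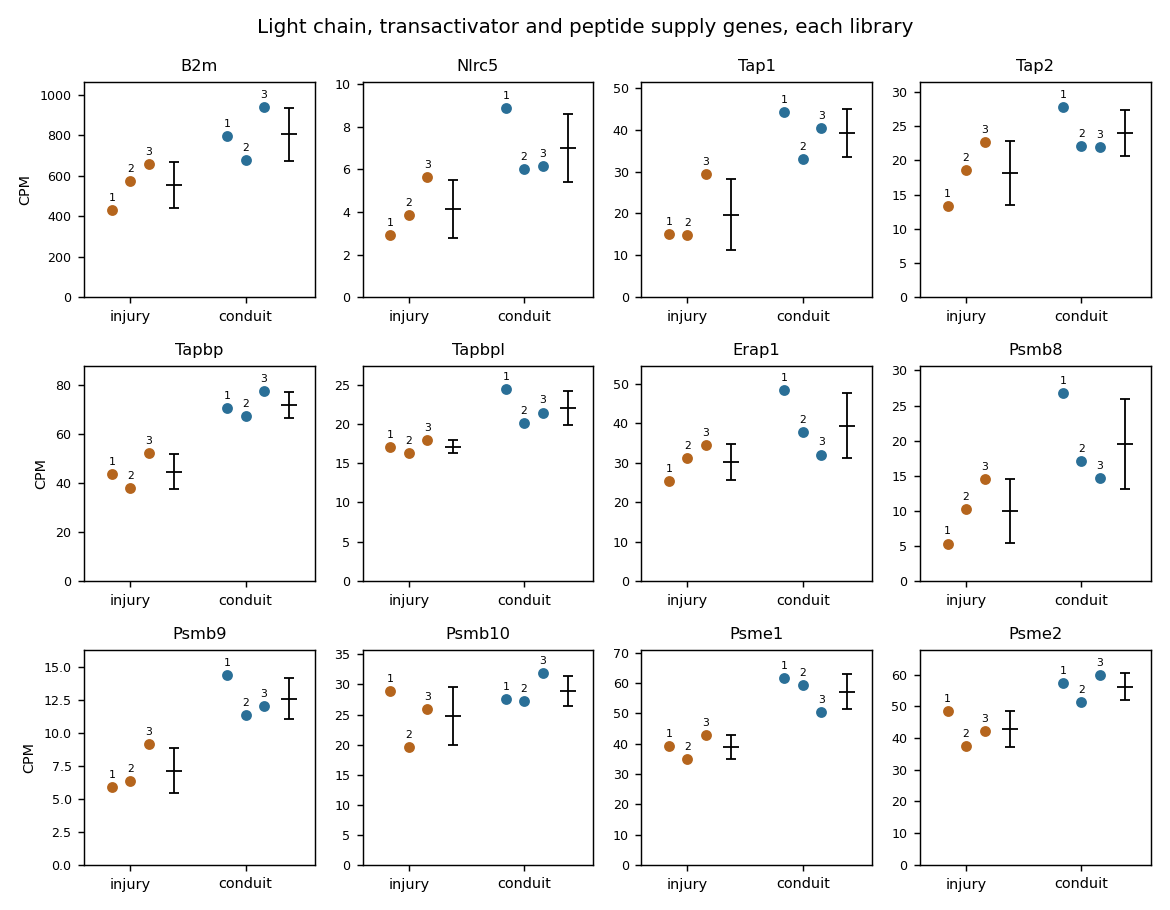
CPM of the 12 other members in each library (vertical axis from 0); numbered points are samples, and the bar beside each group is its mean ± SD (n = 3). All 12 conduit means lie above the injury means, and 9 genes are higher in conduit without overlap, beside 5.41% of all genes. The exceptions are Tap2, Erap1 and Psmb10. The set was chosen by the difference between the groups.

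All 12 of these genes had a log2 fold change above 0, beside 50.5% of all genes. Such differences chose the set, so nothing is read from that gap. These 12 genes had a median of 0.55 and a range of 0.22 to 0.99. They varied less than the RT1 genes, with a median SD of log2 CPM of 0.30 in injury and 0.18 in conduit, and none ranged more than 4-fold within a group. Injury sample 3 was the highest of its group in 10 of 12, by a median of 0.38 over the mean of the other two, and conduit sample 1 was above it in 12 of 12. Of all 16478 genes, injury sample 3 was the highest of its group in 4000, and conduit sample 1 was above it in 8213.

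Other genes of the pathway were taken from lists, and the difference between groups is again a description. Of 19 regulators of class I genes, edgeR called 0 at an adjusted p under 0.05. At an unadjusted p under 0.05 by edgeR, 4 had higher conduit values, beside 2.99% of all genes. By DESeq2's adjusted p, 3 did, beside 0.616% of all genes. The median log2 fold change of the 19 was 0.01. Stat2, a transcription factor that type I interferon receptors activate, was 37.99, 43.9 and 68.7 in injury and 119, 100.025 and 103 in conduit (1.099 ± 0.22), and Irf9, its partner in the complex that binds the ISRE, was 27.2, 27.5 and 59.0 against 85.1, 77.2 and 73.7 (1.05 ± 0.31). In both, injury sample 3 was the highest of its group and below each conduit library. The 9 fitted interferon receptor, kinase and feedback genes had a median of -0.02, with 0 at an unadjusted p under 0.05 by edgeR and 0 calls by DESeq2 and limma-voom.

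The 28 fitted interferon-stimulated genes all had a log2 fold change above 0, beside 50.5% of all genes, with a median of 1.37. After adjustment edgeR called 0 of them. At an unadjusted p under 0.05 by edgeR, 23 had higher conduit values, beside 2.99% of all genes. DESeq2 called 12 higher, beside 0.616% of all genes. Library by library, as the median of log2 CPM minus the mean of the 6 libraries, they stood at -1.29, -1.13 and 0.13 in injury and 1.03, 0.70 and 0.53 in conduit. RT1 genes stood at -1.38, -0.55 and 0.15 in injury and 0.87, 0.56 and 0.63 in conduit, and the other 12 members at -0.52, -0.41 and -0.02 and 0.41, 0.17 and 0.24. In all 3 sets injury sample 3 lay between the other injury libraries and conduit, and conduit sample 1 was highest. Interferon-stimulated genes of injury sample 3 exceeded the mean of the other two by a median of 1.29. Whether the RT1 levels follow interferon signalling was not tested.

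General protein folding and cutting genes had median log2 fold changes near 0. Of 14 endoplasmic reticulum chaperones that fold class I, the median was 0.07; 4 had higher conduit values without overlap, beside 5.41% of all genes, and 3 had an unadjusted p under 0.05, beside 2.99%. DESeq2 called 1 of the 14 and edgeR 0 after adjustment. Calr, the chaperone calreticulin of the loading complex, was 424, 365 and 401 CPM in injury and 531, 478 and 560.3 in conduit (0.40 ± 0.10), without overlap. The 17 constitutive proteasome genes had a median of 0.01 and the 7 other trimming peptidases -0.01; neither list held a gene at an unadjusted p under 0.05 by edgeR or a call by DESeq2 or limma-voom. Of 5 fitted class I-like genes outside the RT1 names, such as Fcgrt, the neonatal Fc receptor, the median was 0.17 and the same tools gave 0.

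Class II genes share the MHC but present peptides from outside the cell. Of 10 class II genes and partners, 1 had higher conduit values without overlap, beside 5.41% of all genes. The median log2 fold change of the 10 was 0.23, and the difference from the class I genes was not tested. RT1-Ba, a class II alpha chain, was 5.12, 6.17 and 1.37 CPM in injury and 18.8, 10.7 and 6.75 in conduit (1.52 ± 0.60). Its partner RT1-Bb was 10.99, 10.1 and 2.24 in injury and 11.4, 7.23 and 7.01 in conduit (0.14 ± 0.55). Injury sample 3 was the lowest library for both, as for RT1-A3, although it was high for the RT1-S and RT1-T24 genes. Within injury, sample 3 was the lowest for 5 of the 10 class II genes and partners. It was the highest for 1, RT1-Db1, at 3.56, 4.75 and 7.90 CPM in injury. Cd74, the class II invariant chain, was 52.1, 74.7 and 51.3 in injury and 103, 64.9 and 36.1 in conduit (0.19 ± 0.37).

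Receptors that read class I were scarce: 5 of 10 had enough counts to be fitted. Klrk1, the activating receptor NKG2D, was 0.398, 1.96 and 1.52 CPM in injury and 7.02, 2.39 and 1.78 in conduit (1.53 ± 0.72). Pirb, an inhibitory receptor of myeloid cells for class I in the mouse, was 1.37, 8.59 and 1.47 in injury. In conduit it was 1.16, 0.603 and 0.276 (-2.48 ± 0.89), separated from injury by a narrow gap. It was the only one of the 5 without overlap and at an unadjusted p under 0.05 by edgeR. Of all genes, 4.22% were lower in conduit without overlap and 2.36% were lower at that p. Cd8a, whose product binds class I on T cells, never exceeded 38 counts.

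Markers of the ganglion's own cells were abundant: summed CPM of 8 neuronal genes was 18379 to 19838 in injury and 17110 to 24477 in conduit, and of 5 Schwann cell genes 28770 to 35149 and 42043 to 48263. Macrophage markers, 10 of 10 fitted, summed to 106, 154 and 125 CPM in injury and 254, 120 and 114 in conduit, so conduit sample 1 stood above the rest. T and NK cell markers, 3 of 11 fitted, summed to 1.79 to 7.26 CPM in injury and 1.46 to 3.91 in conduit, and the T cell gene Cd3e never exceeded 21 counts. B cell markers summed to 0.497, 21.5 and 8.70 in injury and 0.803 to 2.15 in conduit. Red cell genes differed between groups, at 4435 to 5285 CPM in injury and 510.3 to 1272 in conduit, and dividing cell genes were 9.35, 78.0 and 49.7 in injury and 9.72 to 14.6 in conduit. Muscle genes reached 367 CPM in injury sample 1 and 6329 in conduit sample 2, and 6.97 to 14.6 in the others. The part of these differences in the class I values was not tested.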

How the data were processed

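RNA-seq of 6 rat trigeminal ganglion samples, 3 per group, was analysed. Reads were paired and 150 bases long. The authors deposited whole-number counts per gene symbol, and FPKM values per gene for each library. Per the submitters' processing notes, the tools were HISAT2, HTSeq, fastp, SAMtools and DESeq2 and the build mRatBN7.2. For versions, annotation, strand setting and reads that fit several genes: not given in the sources used here. Near-identical RT1 copies and overlapping genes can therefore share or lose reads, and each copy's level is uncertain.

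Counts were fitted in edgeR 4.0.16 under R 4.3.3 (TMM, filterByExpr with a minimum of 10 counts, robust quasi-likelihood F test, no covariate, Benjamini-Hochberg adjustment over 16478 genes), with DESeq2 1.42.0 and limma 3.58.1 beside it. CPM use TMM-scaled library sizes; log2 CPM use a prior count of 2. The floor was set at 3 counts and covers counting error only. With 4 residual degrees of freedom, edgeR estimated a biological coefficient of variation of 0.295; 3 libraries against 3 allow no exact permutation p under 0.1. Scripts were tested on simulated counts. Members, lists and the naming rule were chosen with earlier results of these data known. RT1 genes with a group mean of at least 1 CPM and all 12 other members are given per library; of each list, genes past the test or with the 3 smallest p were eligible to be named, and Cd74, RT1-Bb and Cd3e were chosen after their values were seen. Some genes eligible under this rule are not reported here. Promoters are from RefSeq on GRCr8, matched by symbol. Same-numbered samples did not deviate together (correlations -0.42, 0.06 and -0.07), so numbers were not taken as pairs.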

Additional observations from a re-analysis of the deposited data

How the results depend on the processing

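The number of genes called over all genes was 1, and was 208 with DESeq2, 6 with no filter on low counts, 0 with batch as a term and 0 with the replicate block; leaving out 1 library gave 0 (without conduit sample 3) to 38 (without injury sample 1), with 35 without injury sample 3 and 6 without conduit sample 1. The median log2 fold change of the RT1 genes was 0.84 to 1.55 with 1 library left out (1.55 without injury sample 3). It was 1.18 with the replicate block, 0.80 with batch as a term and 0.80 within batch 2. The batch term and batch 2 alone are not separate checks. Only batch 2 held both groups, so every fold change with batch as a term rests on injury sample 3 against conduit sample 1. The median of the other 12 members was 0.52 to 0.65 with 1 library left out. The difference in summed RT1 CPM was 0.52 within batch 2. RT1 genes without overlap numbered 11 to 20 with 1 library left out, 20 without injury sample 3 (8.48% of all genes then); that count was added after seeing the data. Of 403 values of single members under other settings, 11 moved by more than the spread between replicates, 9 to larger and 2 to smaller values, and 1 changed sign, RT1-T24-4 at -0.19 with batch as a term. An adjusted p under 0.05 was reached by 12 of them: 7 with DESeq2, 4 without injury sample 3 (RT1-CE10, RT1-N2, RT1-S3 and RT1-T24-3) and 1 without injury sample 1 (RT1-CE10). The cause of these shifts was not tested. Depth limits RT1-CE10, RT1-T24-1 and RT1-N2 in injury, where counts were few.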
